A study of Caenorhabditis elegans with 83 samples.

Results

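Small RNAs of Caenorhabditis elegans lacking both met-2 and set-25 were compared with those of the wild type in 6 libraries of 83 in the series: 3 libraries of met-2(n4256);set-25(n5021);SX1263 and 3 of SX1263 with wild-type met-2 and set-25, chosen by strain, generation and food. All 6 came from whole adults on their first day of adulthood, raised at 20 °C in the P0 generation on bacteria that carried an empty RNAi vector, so none was exposed to double-stranded RNA against a worm or reporter gene. Both groups carry the SX1263 background, whose count tables have rows for GFP and for CB-unc-119, the unc-119 rescue sequence of a related nematode. Each replicate number was used in both strains. The labels do not state that these were separate cultures, so p-values measure a spread between libraries, which may be technical. That spread was estimated over all 23 SX1263 P0 libraries, which include the single mutants and anti-GFP fed worms. The single mutants met-2(n4256);SX1263 and set-25(n5021);SX1263 (3 libraries each at P0), the anti-GFP fed P0 libraries of met-2;set-25 (3) and of wild type (2), the F3 empty-vector controls (3 of each strain, descendants grown on standard OP-50 bacteria) and the P0 controls in EG6089, the other strain background of the series (3 of each genotype), served for comparison. The met-2;set-25 strain is called the double mutant where no other strain is meant.

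Methylation of lysine 9 on histone H3 marks repressed chromatin. In C. elegans MET-2, the relative of mammalian SETDB1, deposits mono- and dimethylation, and SET-25 adds trimethylation and carries out much of it on its own; worms lacking both have been described as having little detectable H3K9 methylation in embryos. The nematode also makes large pools of small RNAs against its own genes, chiefly 22G-RNAs copied from mRNA by RNA-dependent RNA polymerases in the germline, and nuclear Argonautes among their carriers recruit H3K9 methylation to their targets. The libraries hold small RNA reads counted per gene, so a gene with more counts is one with more small RNAs and not one with more mRNA. The strand and length of the counted reads are not given in the sources used here, so small RNAs antisense to a gene cannot be told apart from fragments of its own transcript, and in whole animals fewer cells of a type and fewer small RNAs per cell cannot be told apart. No sequence is printed, since none was among the files used.

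Reads counted to genes numbered 9208436 to 15323987 in the met-2;set-25 libraries and 9475573 to 18225929 in the wild-type libraries. Between 15522 and 16061 genes had at least 1 count in met-2;set-25, and between 15212 and 16242 in wild type. The 10 most abundant genes held 6.45% to 7.67% of gene counts in met-2;set-25 and 8.78% to 9.14% in wild type. This difference in composition moved with genotype, and its part in the results was not tested. Levels below are counts per 1000000 gene counts (CPM), scaled with TMM factors, and a gene was called at an adjusted p under 0.05.

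Small RNAs on met-2 and set-25 themselves were lower in the double mutant. The met-2 gene (III:8375300-8380848 in WBcel235) had 99.0, 78.3 and 72.5 CPM in the double mutant and 350, 296 and 319 CPM in wild type, a log2 change of -1.96 ± 0.10 (SE, adjusted p = 4.78e-10). The set-25 gene (III:13283824-13293090) had 110, 111 and 103 CPM in the double mutant, against 230, 237 and 257 CPM in wild type, a log2 change of -1.16 ± 0.08 (adjusted p = 2.47e-08). The groups did not overlap for either gene, and counts remained on both. The extent of the deleted parts is not given in the sources used here, so the remaining counts do not check the alleles. The set-25 gene also overlaps F56A8.8 and unc-64 on the opposite strand, and its counts cannot be told apart from theirs there. GFP had 118, 64.4 and 60.1 CPM in met-2;set-25 and 101.2, 73.4 and 63.6 CPM in wild type, and did not pass the test (adjusted p = 1.00). The sign of its estimate, which was close to 0, changed with the settings. CB-unc-119 fell to 1105, 875 and 886 CPM in the double mutant, against 2408, 2050 and 1651 CPM in wild type (log2 change -1.09 ± 0.14, adjusted p = 1.63e-05). The endogenous unc-119 gene averaged 203 CPM in the double mutant and 179 CPM in wild type, with a log2 change of 0.17 that did not pass the test (adjusted p = 0.264).

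Small RNAs changed on 5096 of the 12657 genes tested (40.3%). They were higher in met-2;set-25 on 2093 genes (16.5%) and lower on 3003 (23.7%). The genes that rose were poor in small RNAs in the wild type, with a median of 12.3 CPM in met-2;set-25 and 4.49 CPM in wild type, and their median log2 change was 1.30. The genes that fell were richer, with medians of 25.8 CPM in the double mutant and 42.8 CPM in wild type, and their median log2 change was -0.68. Large changes went both ways: 416 genes rose and 357 fell by over 4-fold, and 48 rose and 65 fell by over 16-fold. The 3 and 3 libraries did not overlap on 4920 genes (38.9% of those tested). Without the replicate block 1416 genes were higher and 1788 lower. With only the 6 libraries compared in the fit, 10895 genes were tested, of which 1553 were higher and 2206 lower.

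Among the 12 genes that fell most with at least 5 CPM in wild type, receptors stood beside genes known only by their sequence names. The serotonin receptor gene ser-5 (I:8384931-8387039) had 0.836, 0.271 and 0.108 CPM in the double mutant and 235, 170 and 134 CPM in wild type, a 444-fold lower mean and a log2 change of -8.68 ± 0.41 (adjusted p = 6.34e-10). The octopamine receptor gene ser-3 (I:6820517-6823093) had 0.976, 1.63 and 2.598 CPM in met-2;set-25 and 168, 233 and 219 CPM in wild type (log2 change -6.96 ± 0.32, adjusted p = 3.86e-10). In both receptor genes every double-mutant library lay far below every wild-type one. The nuclear hormone receptor gene nhr-236 fell to 1.18, 0.813 and 1.19 CPM in the double mutant, against 141, 112 and 92.7 CPM in wild type (log2 change -6.75 ± 0.43).

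Y55D5A.1 (III:2982409-2988150) had 1.25, 0.903 and 0.649 CPM in the double mutant, against 319, 290 and 340 CPM in wild type, a log2 change of -8.39 ± 0.32 (adjusted p = 3.07e-11). E02H9.9, also on chromosome III, had 0.836, 1.26 and 0.541 CPM in met-2;set-25 and 309, 262 and 208 CPM in wild type (log2 change -8.18 ± 0.40). Both loci lost nearly all of an abundant small RNA population. The cuticlin-like gene cutl-10 had 2.51, 1.35 and 0.974 CPM in the double mutant and 95.5, 70.9 and 64.2 CPM in wild type (log2 change -5.58 ± 0.30). A further 3 of the 12 were at 1 to 3 counts over all 3 double-mutant libraries. T05B9.2 had 1 count in met-2;set-25 and 267 in wild type, so that wild type was higher by 256-fold per library size, with a 95% counting interval from 45.6 to 10164. T24A6.16 had 3 counts in met-2;set-25 and 236 in wild type (75.5-fold higher in wild type, interval 25.5 to 369), and K01D12.1 had 3 counts in met-2;set-25 and 239 in wild type (76.5-fold higher in wild type, interval 25.9 to 374). These intervals are exact and cover counting error only. The other 3 were eva-1, a transmembrane co-receptor in axon guidance, B0361.9 and D2030.12, at log2 changes of -6.46, -5.67 and -5.55.

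The 12 largest gains, among genes that reached 5 CPM, were log2 changes between 5.22 and 7.54. T28B8.1 (I:8134115-8135051) had 1119, 497 and 542 CPM in the double mutant and 5.30, 3.36 and 2.97 CPM in wild type, a 186-fold higher mean and a log2 change of 7.54 ± 0.95 (adjusted p = 1.42e-05). The collagen gene col-87 had 252, 178 and 125 CPM in met-2;set-25 and 1.69, 1.12 and 2.09 CPM in wild type (log2 change 6.82 ± 0.50, adjusted p = 6.28e-08), and a further collagen gene, col-104, had 125.9, 48.1 and 15.6 CPM in the double mutant against 1.11, 1.53 and 0.769 CPM in wild type (log2 change 5.68 ± 0.64). The met-2;set-25 libraries spread widely for col-104 and still did not overlap with wild type. The gene dpy-1, whose mutants are short and stout, had 197, 141 and 122 CPM in the double mutant and 2.91, 3.36 and 2.31 CPM in wild type (log2 change 5.74 ± 0.39). The gene bre-1, which encodes a GDP-mannose dehydratase known for mutants that resist Bacillus thuringiensis toxin, had 585, 352 and 569 CPM in met-2;set-25 and 21.0, 10.39 and 9.01 CPM in wild type (log2 change 5.22 ± 0.41). The Nudix family gene ndx-1 had 313, 253 and 262 CPM in the double mutant and 6.35, 9.57 and 4.73 CPM in wild type (log2 change 5.32 ± 0.51). T23F4.2, plep-1, ZK673.4, F56B3.6, C55C3.7 and T13C2.7 completed the 12, with log2 changes of 5.26 to 6.33. C55C3.7 was the least even of them: its libraries had 22.1, 4.15 and 172 CPM in the double mutant and 0.699, 3.56 and 0.549 CPM in wild type, and its call was lost when the fit held only these 6 libraries.

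**Figure D1:**
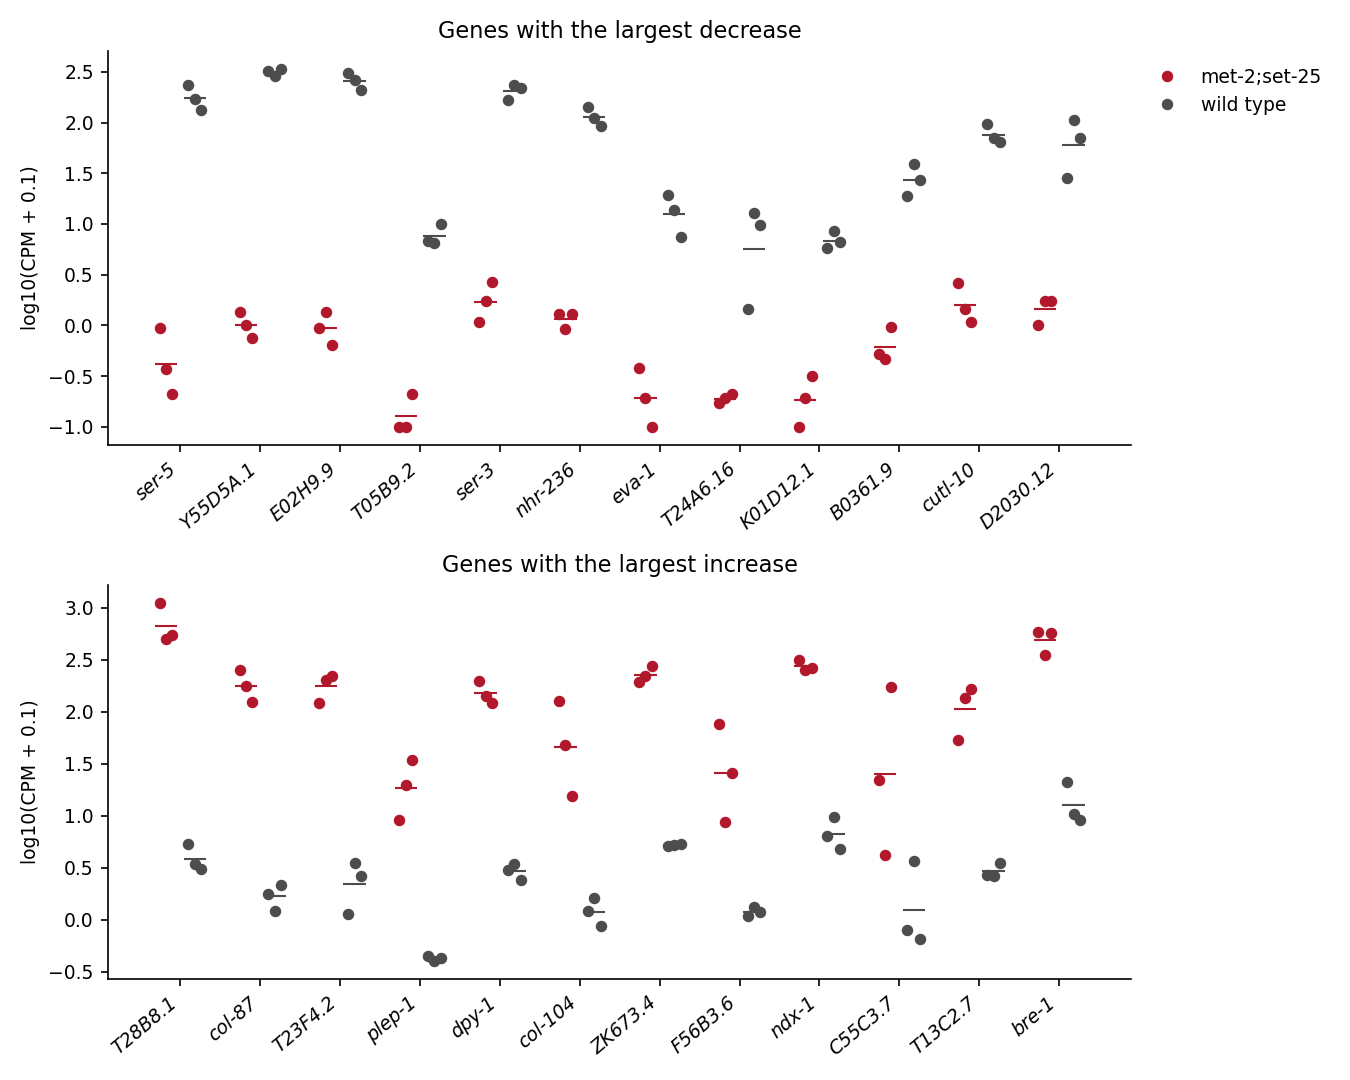
Small RNA level in each library, as log10 of CPM + 0.1, for the 12 genes with the largest decrease (top) and the 12 with the largest increase (bottom); points are the 3 libraries of met-2;set-25 (red, left) and of wild type (grey, right), lines are means on that scale. The groups do not overlap for any of the 24 genes, as the choice required, and C55C3.7, at 4.15 to 172 CPM in met-2;set-25, spreads most.

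Several of these genes overlap another annotated gene, and the counts cannot be assigned between them without knowing the strand. Of the genes that rose, col-87 overlaps xrn-1, F56B3.6 overlaps F56B3.4 and C55C3.7 overlaps piRNA genes. Of those that fell, B0361.9 overlaps B0361.14 and cwf-19L2, and T05B9.2 and eva-1 each overlap a noncoding RNA gene. The gene ser-5 lies within T19A6.1, which had 11.99, 12.9 and 10.2 CPM in the double mutant and 15.7, 15.7 and 18.02 CPM in wild type. The gene ser-3 lies within teg-4, which averaged 101.1 CPM in the double mutant and 94.5 CPM in wild type and did not pass the test (adjusted p = 0.309). Y55D5A.1 overlaps Y55D5A.4, which fell with it, to 2.44, 4.88 and 1.19 CPM in met-2;set-25 against 41.7, 28.4 and 66.7 CPM in wild type. D2030.12 overlaps prg-1, the Piwi Argonaute gene, which averaged 901 CPM in the double mutant and 1055 CPM in wild type (log2 change -0.23, adjusted p = 0.0375).

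The 24 genes differed in what the single mutants showed, and the single mutants, the double mutant and their shared wild-type controls were fitted together. Against wild type, 4606 genes were called in met-2 (36.4%, with 17.8% higher and 18.6% lower) and 269 in set-25 (2.13%, with 0.901% higher and 1.22% lower). Y55D5A.1 was at 0.884, 1.07 and 0.801 CPM in met-2 and at 562, 329 and 401.6 CPM in set-25; met-2;set-25 differed from set-25 (log2 change -8.79 ± 0.32, adjusted p = 2.44e-11) and not detectably from met-2 (0.05 ± 0.47, adjusted p = 0.959). The receptor gene ser-5 had the other profile, at 218, 134 and 69.6 CPM in met-2 and at 5.70, 5.66 and 5.99 CPM in set-25. It was lower in met-2;set-25 than in either single mutant, by a log2 change of -8.25 ± 0.41 against met-2 (adjusted p = 1.83e-09) and of -3.76 ± 0.49 against set-25 (adjusted p = 2.98e-05). The same held for ser-3, with log2 changes of -6.39 ± 0.32 against met-2 and -1.49 ± 0.36 against set-25. T05B9.2 went opposite ways in the single mutants: it had 32.4, 66.2 and 37.6 CPM in met-2, 0.703, 0.585 and 0.422 CPM in set-25, and 6.70, 6.31 and 9.89 CPM in wild type.

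Some changes were larger in met-2;set-25 than in either single mutant. The gene nhr-236 had 133, 192 and 187 CPM in met-2 and 30.9, 27.0 and 20.0 CPM in set-25, and was lower in met-2;set-25 than in met-2 (log2 change -7.35 ± 0.44) and than in set-25 (-4.60 ± 0.44). T28B8.1 had 4.94, 63.9 and 6.48 CPM in met-2 and 17.97, 4.68 and 5.15 CPM in set-25, and was higher in met-2;set-25 than in met-2 (log2 change 4.87 ± 0.82, adjusted p = 3.33e-04) and than in set-25 (6.33 ± 0.87, adjusted p = 4.78e-05). For dpy-1 the values were 20.7, 10.1 and 14.4 CPM in met-2 and 2.50, 2.93 and 2.96 CPM in set-25, and met-2;set-25 exceeded met-2 by a log2 change of 3.36 ± 0.33. The collagen genes col-87 and col-104 did not differ detectably between the double mutant and met-2 (log2 changes of met-2;set-25 over met-2 of 0.28 ± 0.34 and -0.48 ± 0.43).

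**Figure D2:**
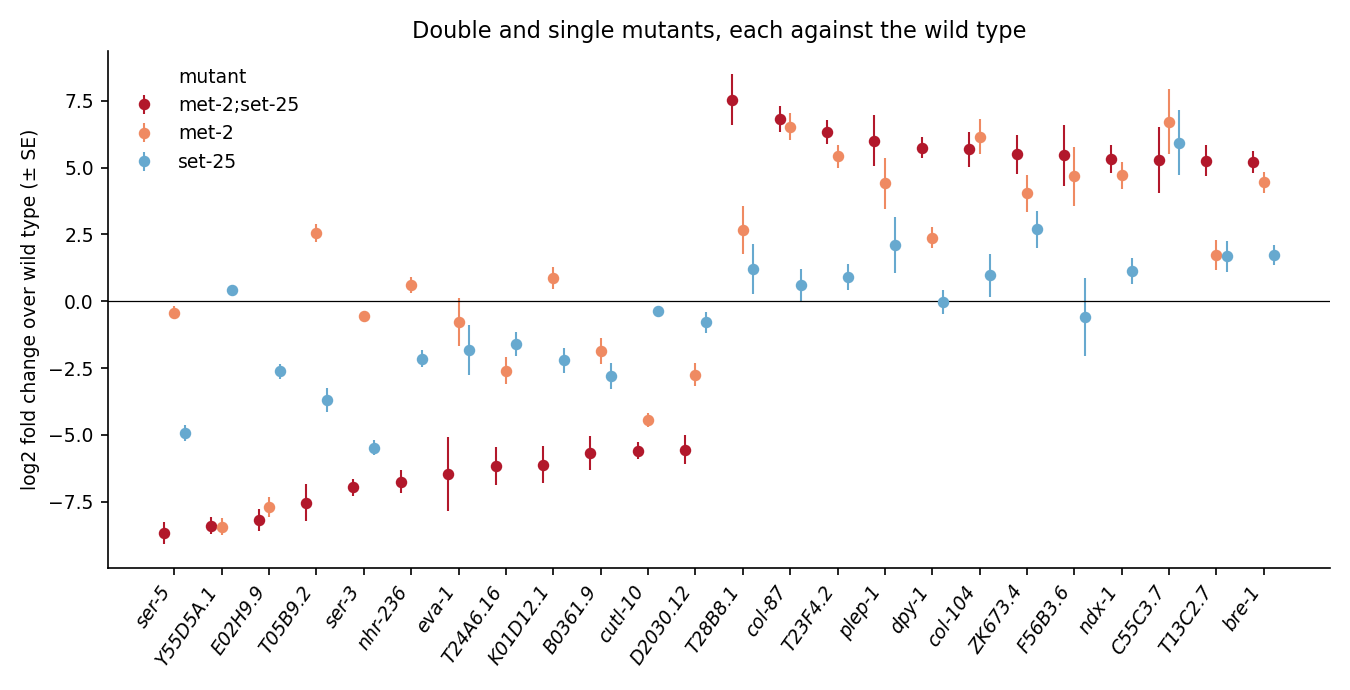
Log2 fold change over wild type with its standard error for the 24 genes with the largest changes in met-2;set-25 (red), beside the same genes in met-2 (orange) and in set-25 (blue). The 3 mutants share the wild-type libraries. ser-5 and ser-3 are low in set-25 and at -0.43 and -0.57 in met-2, Y55D5A.1 is low in met-2 and at 0.40 in set-25, and nhr-236 is far lower in the double mutant than in either.

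Tested directly, 3898 genes differed between met-2;set-25 and met-2 (30.8%), with 1607 higher (12.7%) and 2291 lower (18.1%), and 4306 between met-2;set-25 and set-25 (34.0%), with 1615 higher (12.8%) and 2691 lower (21.3%). The 2 contrasts share the double-mutant libraries. Among the genes most above met-2 was set-18, a SET-domain gene, at 3.42, 70.1 and 71.2 CPM in the double mutant, 1.55, 1.31 and 1.60 CPM in met-2 and 0.99, 1.53 and 2.20 CPM in wild type (log2 change over met-2 4.75 ± 0.84, adjusted p = 4.91e-04). The ribosomal protein gene rpl-11.2 and the F-box gene fbxa-216 did not pass the test against wild type (adjusted p = 0.183 and 0.082) and were higher than in met-2 by log2 changes of 5.21 ± 0.76 and 4.64 ± 0.56. On the other side stood qua-1, a hedgehog-related gene: it had no count in any met-2;set-25 library, 35.9, 33.4 and 31.2 CPM in met-2, and 1 count over the 3 wild-type libraries. With a floor of 3 counts over the double-mutant libraries it was at least 387-fold lower than in met-2, and by the same floor C40H1.3 was at least 221-fold, nhr-219 at least 159-fold and the pseudogene M28.2 at least 100.3-fold lower. Among the genes most above set-25 was droe-4, at 775, 308 and 383 CPM in met-2;set-25, 6.64, 1.37 and 4.22 CPM in set-25 and 53.4, 16.7 and 13.8 CPM in wild type (log2 change over set-25 6.88 ± 0.81).

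Gene families moved unevenly. Of 322 F-box genes, which encode substrate adaptors of ubiquitin ligases and form large fast-evolving families in worms, 220 could be tested, and 128 of these fell and 19 rose in met-2;set-25, against 23.7% lower and 16.5% higher among all genes tested. Their median log2 change was -0.94, and that of all genes tested 0.0048. fbxa-115 had 16.6, 11.5 and 8.77 CPM in the double mutant and 232, 220 and 178 CPM in wild type (log2 change -4.10 ± 0.13, adjusted p = 8.94e-13). fbxa-138 and fbxb-83 fell by 4.02 and 3.42 on the log2 scale. fbxa-106 went the other way, at 133, 234 and 227 CPM in the double mutant and 45.5, 66.5 and 51.5 CPM in wild type (log2 change 1.85 ± 0.15). In met-2 against the same wild-type libraries 144 of the 220 fell (all genes tested: 18.6%). Tested directly, 44 were higher and 16 lower in met-2;set-25 than in met-2 (all genes tested: 12.7% and 18.1%). The MATH and BATH genes, another family of ubiquitin ligase adaptors, had 7 higher and 16 lower of 47 tested. math-44 fell to 8.09, 6.23 and 6.28 CPM in met-2;set-25 against 124, 167 and 157 CPM in wild type, and bath-36 rose to 178, 405 and 243 CPM in the double mutant against 37.6, 46.8 and 58.0 CPM in wild type. Of 18 pals genes tested, a family that includes regulators of the response to intracellular infection, 7 fell, pals-25 among them (log2 change -1.86 ± 0.22), and 1 rose. Among Skp1-related and cullin ubiquitin ligase genes 1 of 22 rose, skr-3 (log2 change 1.62 ± 0.20), and 6 fell.

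Small RNAs on cytosolic ribosomal protein genes fell in 46 of 79, with 1 higher, a median log2 change of -0.43 and no member untested. This was 58.2% lower and 1.27% higher, against 23.7% and 16.5% of all genes tested. Their median level was 31.1 CPM, and of all genes tested at 20 to 100 CPM 40.4% fell and 10.8% rose. rps-21 had 31.1, 32.9 and 24.03 CPM in the double mutant and 66.4, 91.4 and 104 CPM in wild type (log2 change -1.57 ± 0.20, adjusted p = 9.82e-06), and rps-22 fell by 1.13. rpl-42 was the member that rose (log2 change 0.93 ± 0.34), and its call was lost under 6 of 14 alternative settings: the control libraries only, only the groups compared, no replicate block, or without replicate 3 of met-2;set-25, replicate 2 of wild type or replicate 3 of wild type (adjusted p up to 0.203). Small RNA counts on such abundantly transcribed genes may include fragments of their mRNA, which were not separated here.

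Among genes of the small RNA pathways themselves the mutator list had the largest share of falls, 41.2% against 23.7% of all genes tested. In the other 5 lists at most 28.6% fell, and of all genes tested 16.5% rose. In the mutator complex and the RNA-dependent RNA polymerases, which amplify 22G-RNAs, 7 of 17 fell and 1 rose: the nucleotidyltransferase gene mut-2 had 33.2, 30.9 and 26.7 CPM in met-2;set-25 and 50.4, 50.8 and 50.1 CPM in wild type (log2 change -0.74 ± 0.09), and smut-1 and ekl-1 fell by 0.71 and 0.66. The mutator gene that rose, nyn-1, lost its call under 2 of 14 alternative settings (adjusted p up to 0.067). Of 27 primary Argonaute, 26G-RNA and piRNA factors 6 fell and 1 rose. Of the 6, those named by size of change were eri-9, henn-1, the methyltransferase of small RNA ends, and ergo-1, the 26G-RNA Argonaute gene, at log2 changes of -0.80, -0.66 and -0.64. The 1 that rose, prde-1, lost its call under 8 of 14 alternative settings (adjusted p up to 0.149). Of the 14 secondary Argonautes tested 1 rose and none fell, of 15 nuclear RNAi and inheritance factors 1 rose (rsd-2, log2 change 0.57) and 1 fell (hrde-2, -0.45), and of 7 genes of double-stranded RNA uptake and processing 1 rose (sid-3) and 2 fell (eri-7 and eri-6). The calls of hrde-2, sid-3 and eri-6 were lost without the replicate block, those of rsd-2, sid-3 and eri-6 without replicate 3 of met-2;set-25, those of sid-3 and eri-6 also without replicate 3 of wild type or with only the groups compared (adjusted p up to 0.335 for hrde-2, 0.115 for sid-3, 0.466 for eri-6 and 0.0671 for rsd-2). Of 16 P granule components 4 rose and 2 fell. The calls of the 2 that fell, pgl-2 and glh-1, were lost without the replicate block. That of glh-1 was lost under 4 of 14 alternative settings (adjusted p up to 0.203 for pgl-2 and 0.368 for glh-1). The rise of mip-2 lost its call under 6 of 14 (adjusted p up to 0.448). meg-4, which encodes a disordered P granule protein, had 114, 82.5 and 78.4 CPM in the double mutant and 58.6, 58.3 and 54.3 CPM in wild type (log2 change 0.67 ± 0.13), while its log2 change in met-2 was -1.64.

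Targets of ERGO-1, duplicated and poorly conserved genes that are silenced by 26G-RNAs and their secondary 22G-RNAs, lost small RNAs on 14 of 27 tested members and gained them on 6 (51.9% and 22.2%, against 23.7% and 16.5% of all genes tested), with a median log2 change of -0.66. Their summed level was 9136 to 11560 CPM in the double mutant and 16189 to 24404 CPM in wild type, with no overlap. H09G03.1 had 13.03, 16.4 and 9.74 CPM in met-2;set-25 and 137, 161 and 142 CPM in wild type (log2 change -3.50 ± 0.18, adjusted p = 9.17e-10). K02E2.6 averaged 737 CPM in the double mutant and 2428 CPM in wild type (log2 change -1.70), and C44B11.6 averaged 919 CPM in the double mutant and 2051 CPM in wild type (log2 change -1.18). F55C9.5 rose, to 144, 183 and 265 CPM in met-2;set-25 against 52.5, 135 and 95.6 CPM in wild type (log2 change 1.11 ± 0.19). K02E2.6 and C44B11.6 were named after their values were seen. These genes are near-identical copies in part, so counts may be split between them.

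Among chromatin regulators, the list of MET-2 partners and H3K9 readers had 2 genes higher and 6 lower of 18 (33.3% lower, against 23.7% of all genes tested, of which 16.5% were higher), with met-2 and set-25 themselves among the 6. lin-13, a zinc-finger partner of the HP1 protein HPL-2, had 967, 887 and 780 CPM in the double mutant and 718, 621 and 613 CPM in wild type (log2 change 0.43 ± 0.09), and the chromodomain gene cec-5 averaged 57.3 ± 6.03 CPM in met-2;set-25 and 83.1 ± 11.3 CPM in wild type (SD, n = 3 each), a difference that passed the test (log2 change -0.53 ± 0.09). Of 35 synMuv and Polycomb-type regulators 4 rose (11.4%) and 8 fell (22.9%, near the share over all genes), lin-54, of the DREAM repressor complex, by 0.53. Of 41 histone genes tested 7 rose (17.1%, near the share over all genes) and 3 fell (7.32%). The linker histone gene hil-8 had 1768, 2002 and 2238 CPM in met-2;set-25 and 3483, 3738 and 3609 CPM in wild type (log2 change -0.86 ± 0.11), and his-68 rose by a log2 change of 1.15, with the reserve that core histone genes come in near-identical copies.

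Among germline genes, none of 39 oocyte and germ stem cell regulators rose and 11 fell (28.2%, against 23.7% of all genes tested, of which 16.5% rose). The Notch receptor gene glp-1 had 142, 133 and 110.1 CPM in the double mutant and 220.1, 215 and 221 CPM in wild type (log2 change -0.77 ± 0.08, adjusted p = 9.68e-07), and spn-4 and par-1 fell by 0.56 and 0.46. None of 24 synaptonemal complex and meiotic axis genes rose and 5 fell (20.8%), syp-3 most (log2 change -0.83 ± 0.14). The median level of these 24 genes was 75.5 CPM, and of all genes tested at 20 to 100 CPM 40.4% fell. Of 29 tested major sperm protein and related small sperm genes 13 rose (44.8%) and none fell, with a median log2 change of 0.99. nspd-1 had 6.55, 3.97 and 8.44 CPM in the double mutant and 2.79, 1.32 and 1.87 CPM in wild type. These families also hold near-identical copies, their levels were low, at a sum of 82.0 to 192 CPM in met-2;set-25 and 42.98 to 66.7 CPM in wild type, and 24 of their 53 genes were not tested. Of 28 other sperm genes 5 rose (17.9%) and 6 fell (21.4%), shares near those over all genes: spe-47 had 385, 356 and 382 CPM in the double mutant and 166, 146 and 148 CPM in wild type (log2 change 1.29 ± 0.10, adjusted p = 7.37e-08), and spe-15 fell by 1.01.

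Yolk protein genes gained small RNAs together: all 6 vitellogenin genes rose, and the yolk receptor gene rme-2, expressed in oocytes, did not pass the test (log2 change -0.07, adjusted p = 0.591). vit-1 had 32.0, 22.7 and 27.5 CPM in the double mutant and 6.40, 7.03 and 8.24 CPM in wild type (log2 change 1.90 ± 0.27), and vit-5 had the largest change, 2.34 ± 0.42. Counts on vit-3, vit-4 and vit-5 are uncertain, since these copies are near-identical. Of 24 intestine genes 7 rose and 3 fell (29.2% and 12.5%, against 16.5% and 23.7% of all genes tested). The gut esterase gene ges-1 had 3.97, 5.69 and 5.74 CPM in met-2;set-25 and 0.408, 0.611 and 0.989 CPM in wild type (log2 change 3.01 ± 0.42), the peptide transporter gene pept-1 rose by 2.50 ± 0.29, and erm-1 fell by 0.90. Of 21 body wall muscle genes 1 rose (4.76%) and 2 fell (9.52%), unc-54, the myosin heavy chain gene, by 2.37. Against met-2, 11 of the 21 were lower and 1 higher (all genes tested: 18.1% lower and 12.7% higher). Of 33 neuron genes 7 rose and 7 fell (21.2% each), those lower including ser-5 and ser-3. The neuropeptide receptor gene pdfr-1 also fell. It had 6.13, 7.495 and 7.79 CPM in the double mutant and 254, 287 and 203 CPM in wild type (log2 change -5.12 ± 0.45). ric-4, the worm SNAP-25 gene, rose to 80.4, 70.7 and 74.3 CPM in the double mutant against 20.9, 16.8 and 18.9 CPM in wild type (log2 change 1.99 ± 0.18).

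**Figure D3:**
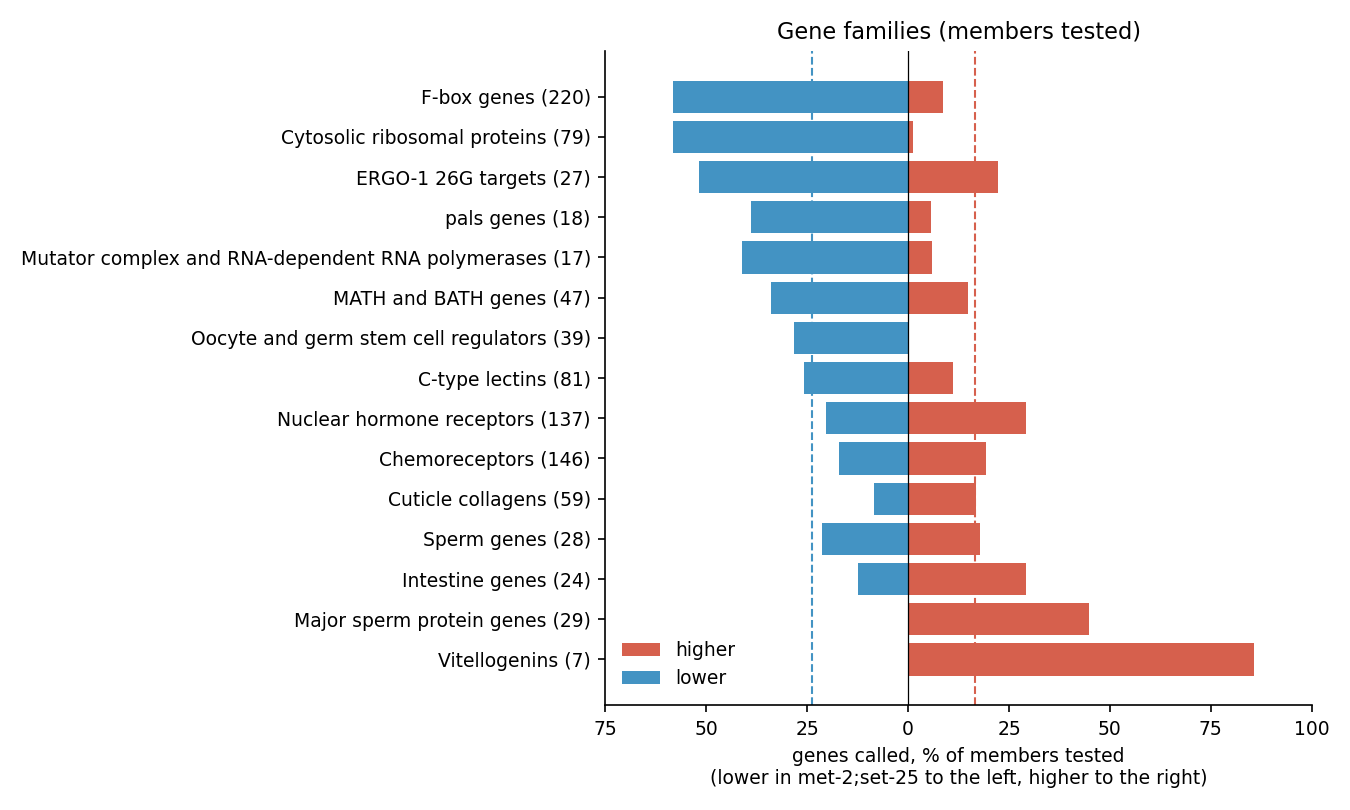
Share of tested members called lower (blue, left) and higher (red, right) in met-2;set-25 for 15 gene lists, with the number tested in parentheses; dashed lines are the shares over all 12657 genes tested, 23.7% lower and 16.5% higher. F-box and ribosomal protein genes extend farthest to the left and vitellogenins, a list of 7 that includes rme-2, farthest to the right.

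In the other families the share of tested members that rose was at most 29.2%, in nuclear hormone receptors. The share that fell lay between 8.47% in cuticle collagens and 25.9% in C-type lectins. Of all genes tested 16.5% rose and 23.7% fell. These ranges leave out the reporter parts listed last, of which 28.6% fell. Nuclear hormone receptors had 40 higher and 28 lower of 137 tested, nhr-61 at 153, 304 and 99.2 CPM in met-2;set-25 and 14.4, 12.02 and 16.9 CPM in wild type (log2 change 3.57 ± 0.50). Chemoreceptors, most of which had too few counts to test, had 28 higher and 25 lower of 146. C-type lectins had 9 higher and 21 lower of 81: clec-204 had 193, 416 and 284 CPM in the double mutant and 5.82, 12.02 and 18.9 CPM in wild type (log2 change 4.64 ± 0.26), and clec-12 had 3.97, 4.24 and 2.27 CPM in the double mutant and 89.9, 126.5 and 93.6 CPM in wild type (-4.86 ± 0.26). Cuticle collagens had 10 higher and 5 lower of 59 tested in the double mutant. In met-2 alone 34 of these 59 were higher than in wild type (all genes tested: 17.8%). In met-2;set-25, 25 were lower than in met-2 and 2 higher (all genes tested: 18.1% and 12.7%). Cuticlin and cuticlin-like genes had 6 higher and 5 lower of 22, with cutl-14 at 227, 205 and 275 CPM in met-2;set-25 and 8.67, 8.25 and 6.59 CPM in wild type (log2 change 4.91 ± 0.27). Cytochrome P450 genes had 8 higher and 7 lower of 34, homeobox ceh genes 6 and 7 of 31, stress and heat shock genes 2 and 3 of 16, and annotated pseudogenes 40 and 54 of 223. Of 7 genes that commonly supply parts of germline reporters, none rose, and CB-unc-119 and unc-54 fell.

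The X chromosome went against the autosomes. Of 1357 X-linked genes tested, 472 rose (34.8%) and 97 fell (7.15%), with a median log2 change of 0.48, whereas of 11197 autosomal genes 1600 rose (14.3%) and 2885 fell (25.8%), with a median of -0.03. On the autosomes at most 18.4% of genes were higher and at least 21.1% lower. The X chromosome is silenced through much of the germline, and genes on it carry fewer small RNAs, so the comparison was repeated at matched levels. At 5 to 20 CPM (mean of both groups) 46.2% of 320 X-linked genes and 18.5% of 1767 autosomal genes rose, and at 20 to 100 CPM 40.4% of 193 X-linked and 9.14% of 3588 autosomal genes. At 100 to 1000 CPM the order was the other way: 13.5% of 104 X-linked and 19.7% of 1720 autosomal genes rose, while 27.9% of the X-linked and 20.9% of the autosomal genes fell. The X held 7.99%, 6.94% and 6.49% of all gene counts in met-2;set-25 and 7.30%, 7.54% and 6.86% in wild type, ranges that overlap.

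F23A7.5, on the X, had 24.95, 16.3 and 12.3 CPM in the double mutant and 0.582, 0.611 and 0.33 CPM in wild type (log2 change 5.08 ± 0.40). The sorting nexin gene snx-1 had 119.3, 99.2 and 91.4 CPM in the double mutant, 11.9, 14.7 and 15.4 CPM in wild type, and log2 changes of 2.89 ± 0.30 in the double mutant, -0.10 in met-2 and 0.33 in set-25. F39F10.4, an X-linked ERGO-1 target, fell to 99.5, 98.3 and 83.6 CPM in met-2;set-25 against 280, 737 and 479 CPM in wild type. In met-2 the X was not one-sided, with 296 genes higher (21.8%) and 255 lower (18.8%) than wild type, and in met-2;set-25 against met-2 directly 340 X-linked genes were higher (25.1%) and 59 lower (4.35%), beside 12.7% and 18.1% of all genes.

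**Figure D4:**
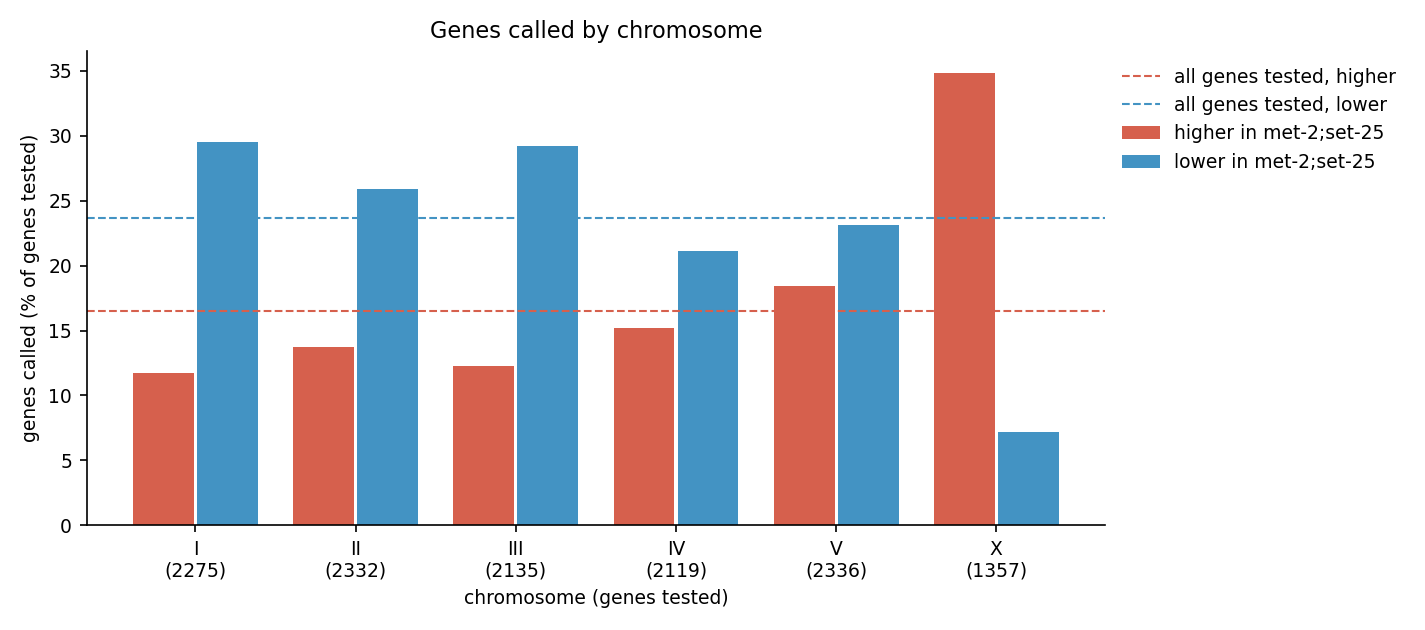
Share of tested genes called higher (red) and lower (blue) in met-2;set-25 on each chromosome, with the number of genes tested below each name; dashed lines are the shares over all genes tested, 16.5% higher and 23.7% lower. On the 5 autosomes the blue bar is taller than the red, and on the X 34.8% are higher and 7.15% lower.

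Genes in the outer 25% at either end of each autosome, where repeats and H3K9 methylation are dense, had 759 higher and 1367 lower of 4651 tested (16.3% and 29.4%, against 14.3% and 25.8% of all autosomal genes tested). Genes within 1 Mb of met-2 had 45 higher and 85 lower of 342 tested (13.2% and 24.9%, near the autosomal shares), and genes within 1 Mb of set-25, 30 higher and 64 lower of 205 (14.6% and 31.2%). Such linked genes can carry other variants of the mutants' parental strains, and the part of linkage in these changes was not tested. arrd-15, within 1 Mb of met-2, had 3.07, 12.6 and 8.88 CPM in the double mutant and 91.6, 147 and 149.6 CPM in wild type (log2 change -4.11 ± 0.35), and myo-6, a muscle myosin gene within 1 Mb of set-25, had 1.88, 2.44 and 1.84 CPM in the double mutant and 10.36, 14.7 and 9.67 CPM in wild type (-2.49 ± 0.23). Around met-2 the balance differed from that of the single mutant. In met-2, 82 of the 342 were higher and 44 lower than in wild type (all genes tested: 17.8% and 18.6%). In met-2;set-25, 35 were higher and 102 lower than in met-2. Over all genes tested this direct contrast also leaned lower, with 12.7% higher and 18.1% lower.

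Neighbouring genes could move as blocks. The longest run of adjacent tested genes called in the same direction was 20 genes on chromosome II (II:1639204-1694630, from srh-72 to fbxc-26), all lower in met-2;set-25, with a median log2 change of -2.03. It holds F-box genes of the fbxb and fbxc classes, btb-12 and the homeobox-like gene duxl-1. duxl-1 had 30.8, 23.2 and 23.3 CPM in met-2;set-25 and 91.2, 120 and 80.1 CPM in wild type (log2 change -1.92 ± 0.20), btb-12 had 8.64, 9.12 and 6.39 CPM in the double mutant and 35.7, 79.1 and 65.7 CPM in wild type (-2.84 ± 0.24), and fbxb-26 had 38.6, 53.1 and 39.2 CPM in the double mutant and 74.1, 110.3 and 113 CPM in wild type (-1.18 ± 0.20). Within 60 kb on either side, 21 further genes were tested, of which 9 fell, 6 rose and 6 did not pass. Both flank shares exceeded those over all genes tested, of which 23.7% fell and 16.5% rose. F-box paralogs can be similar in sequence, so that counts of neighbouring copies may not be independent.

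**Figure D5:**
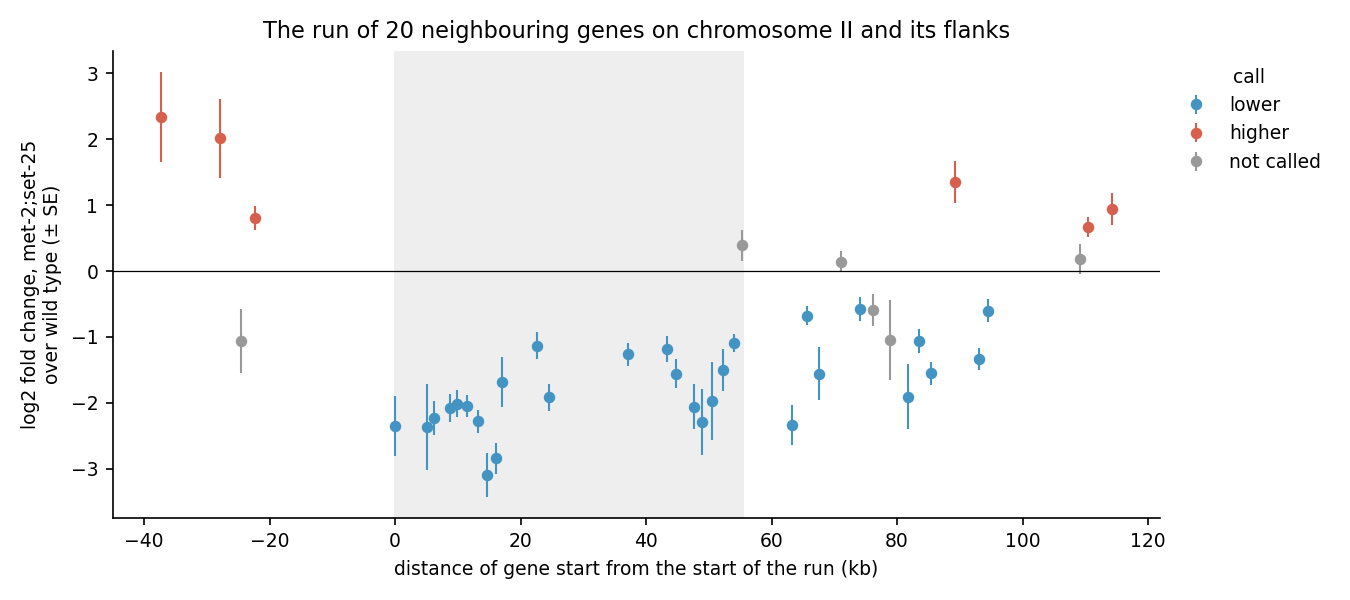
Log2 fold change of met-2;set-25 over wild type with its standard error for each tested gene in the run of 20 on chromosome II (shaded) and within 60 kb on either side, against the distance of the gene's start from the start of the run. All 20 genes of the run lie below 0, and the 21 flanking genes hold 9 lower, 6 higher and 6 that did not pass the test. Over all genes tested 23.7% were lower and 16.5% higher.

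The next longest run was on chromosome I, where 9 genes from ZK1053.4 to M01E5.3 (I:13241655-13286504) fell with a median log2 change of -1.77, among them F44F1.6, at 5.65, 6.86 and 4.44 CPM in met-2;set-25 and 36.7, 56.1 and 59.3 CPM in wild type, and vet-6, at 130, 104 and 73.4 CPM in the double mutant and 389, 339 and 306 CPM in wild type. Of 5 runs of 8 genes, all lower, the one from eva-1 to unc-122 (I:14829732-14875436) had a median of -2.17 and includes unc-54, whose 3′ end is a common part of reporters. The longest runs of genes that rose had 7 genes each, and both lay on the X, from F48D6.4 to C52B9.8 and from srd-42 to C49F8.3, with medians of 1.18 and 1.29.

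The loci named here, the most abundant of those called in each direction, changed by less than 2-fold. Other abundant loci, among them CB-unc-119 and the ERGO-1 targets K02E2.6 and C44B11.6, fell by over 2-fold. W09C5.12 had 12447, 6867 and 5970 CPM in the double mutant and 21562, 12462 and 11616 CPM in wild type (log2 change -0.87 ± 0.13, adjusted p = 5.19e-05). Replicate 1 was high in both strains. The BTB and MATH domain gene bath-45 fell by 0.69, Y71A12B.10 by 0.54, the pseudogene F37H8.2 by 0.61 and B0250.8 by 0.38. Without the replicate block the calls of all 5 were lost (adjusted p = 0.18 for W09C5.12, 0.275 for bath-45, 0.0883 for Y71A12B.10, 0.126 for F37H8.2 and 0.409 for B0250.8). That of B0250.8 was lost under 8 of 14 alternative settings, among them leaving out replicate 1 or 3 of either strain. The noncoding RNA T09F5.12 had 10480, 11279 and 8958 CPM in met-2;set-25 and 10639, 11821 and 12089 CPM in wild type and did not pass the test (adjusted p = 0.332). Of abundant loci that rose, the cadherin gene cdh-12 had 4328, 4400 and 3502 CPM in the double mutant and 1925, 2474 and 2231 CPM in wild type (log2 change 0.88 ± 0.13), and jmjc-1, a JmjC-domain gene, had 2743, 2248 and 2595 CPM in the double mutant and 1639, 1890 and 1560 CPM in wild type (0.58 ± 0.10). Also among the most abundant loci called higher were Y37H9A.2, Y52B11A.18 and pan-1, whose calls were less stable. The call of Y37H9A.2 was lost without the replicate block (adjusted p = 0.0598). Those of Y52B11A.18 and pan-1 were lost under 3 and 2 of 14 alternative settings (adjusted p up to 0.333 and 0.0865).

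Libraries that share none of the 6 were then examined for the same contrast. The anti-GFP fed libraries were fitted together with the 6, so both contrasts shared estimates of spread and of the replicate block. With only the fed groups in the fit, 1411 genes were higher and 990 lower. In anti-GFP fed worms 4703 genes were called (37.2%), with 1900 higher (15%) and 2803 lower (22.1%). They included 1474 of the 2093 genes higher in the controls (70.4%, or 77.6% of the 1900) and 2370 of the 3003 lower (78.9%, or 84.6% of the 2803), with none called the opposite way. The F3 controls had 4383 such genes (38.3%), 2124 of them higher (18.6%) and 2259 lower (19.7%). Of these, 1342 were also higher at P0 (69.4% of the P0 calls tested in both, or 64.1% of the 2094 F3 calls tested in both) and 1935 were also lower at P0 (66.1%, or 86.0% of 2250), with 1 and 2 called the opposite way. In EG6089 at P0, 4167 genes were called (45.9%), of which 1679 were higher (18.5%) and 2488 lower (27.4%), with 963 higher in both (64.6% of the P0 calls tested in both, or 59.3% of the 1625 EG6089 calls tested in both) and 1949 lower in both (72.5%, or 80.0% of 2435), and 24 and 38 called the opposite way. Across genes, which are not independent replicates, log2 changes correlated with Pearson r of 0.87 with the fed worms, 0.88 with F3 and 0.74 with EG6089. The X was higher than the autosomes in its share of gains in SX1263 at F3, with 38.4% higher and 6.62% lower of 1194 tested. In EG6089 the X had 20.5% higher and 15.1% lower of 881, beside 18.5% and 27.4% of all genes tested there. Its share of gains did not exceed that of every autosome in this background. It was below those of chromosomes IV (20.9%) and V (22.8%) and above those of I, II and III (at most 17.5%). Its share of losses was below that of each autosome. The 12 EG6089 P0 libraries were shallower, at 2134929 to 6102965 gene counts against 9208436 to 18225929 in the 6 SX1263 libraries. Fewer X-linked genes were tested there, 881 against 1357. The EG6089 count tables also listed no unaligned reads, unlike those of SX1263. The part of depth and processing in the differences between backgrounds was not tested.

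ser-5 fell in each of these sets, by log2 changes of -8.23 in fed worms, -8.09 at F3 and -6.63 in EG6089. ser-3 fell by 6.90 in fed worms, 6.45 at F3 and 2.01 in EG6089, and col-87 rose by 6.61, 6.80 and 2.79. T28B8.1 rose by 5.24, 7.26 and 6.80, and nhr-236 fell by 7.69, 6.55 and 6.93. Tested as an interaction across 47 libraries, the effect of met-2;set-25 at P0 differed from that at F3 for 4 of 12850 genes (0.0311%), with 950 at an unadjusted p under 0.05 (7.39%).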

How the data were processed

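The series holds 83 small RNA libraries in 28 groups, of which the 23 SX1263 P0, 24 SX1263 F3 and 12 EG6089 P0 libraries were used and 24 were not used here. RNA was extracted with TRIZOL, and the labels name the NEBNext and TruSeq small RNA kits without saying which served which library. The authors deposited HTSeq read counts per gene; the submitters' processing notes also name cutadapt, FastQC, Bowtie2 and DESeq2 and the build WBcel235 (ce11), with no versions. Strand setting, length filter and treatment of multiply mapped reads are not given in the sources used here. Counter rows that name no gene held 54.9% to 58.8% of reads in met-2;set-25 and 55.2% to 61.9% in wild type and were left out. Of 20449 gene rows, 20159 matched the annotation by name.

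Counts were tested with edgeR 4.0.16 (R 4.3.3; TMM scaling, robust quasi-likelihood test, at least 10 counts by its expression filter, Benjamini-Hochberg adjustment over all genes tested), in one fit of the 23 SX1263 P0 libraries in 8 groups with replicate number as a block. The F3 and EG6089 fits had no block. Same-numbered libraries of the 2 strains at P0 deviated together (r of 0.51, 0.27 and 0.25 across genes), so the numbers were taken as pairs, although replicate 2 of met-2;set-25 correlated more with a wild-type library of another number (r of 0.43). Replicates differed by more than sampling noise (chi-square per degree of freedom 7.87 to 103.9). Alternatives were DESeq2 1.42.0, RLE scaling, other filters, other sets of libraries, no block, and leaving out each library. The procedure was tested on simulated data: it called no changed gene with the wrong sign, called a few unchanged genes, missed some 4-fold changes at low counts and most smaller ones, and passed a criterion that was relaxed for low counts after a first one had not been met. CPM divide counts by gene total and TMM factor. The comparison and the 37 gene lists were chosen with earlier results of these data known. Genes named are the targeted genes, reporter rows and the 12 largest called changes per direction that reached 5 CPM without overlap of libraries. Also named are the most abundant genes, the largest changes within each list and run, and the largest differences from each single mutant. Of the genes that moved opposite ways between backgrounds 3 are named, and these are not the largest differences. Others are named as chosen after their values were seen or as overlapping neighbours.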

Additional observations from a re-analysis of the deposited data

Results flagged for a closer look

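For 4 genes the effect of met-2;set-25 at P0 differed from its effect at F3 in a test of the difference itself (edgeR, adjusted over 12850 genes), and all 4 differences were positive. The difference was 0.88 ± 0.16 on the log2 scale for hsp-3, an endoplasmic reticulum chaperone gene (adjusted p = 0.0379): at P0 it had 44.3, 45.97 and 44.9 CPM in met-2;set-25 and 38.1, 32.9 and 32.4 CPM in wild type, and at F3 35.2, 39.5 and 37.0 CPM in met-2;set-25 and 43.5, 56.4 and 51.0 CPM in wild type. It was 1.05 ± 0.20 for xbp-1, a transcription factor gene of the unfolded protein response (adjusted p = 0.0463), 1.46 ± 0.23 for the zinc transporter gene zipt-2.1 (adjusted p = 0.00606) and 1.19 ± 0.20 for F15B9.10 (adjusted p = 0.00997). At F3 xbp-1 had 30.4, 26.7 and 40.3 CPM in met-2;set-25 and 79.0, 88.9 and 71.9 CPM in wild type. These 4 calls rest on few libraries, since leaving out single libraries gave 1 to 6 calls.

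Of 8862 genes tested in both SX1263 and EG6089 at P0, 41 moved opposite ways with no overlap of libraries in either background. Some had low counts, such as ikb-1, at a mean of 1.08 CPM in the higher group of SX1263. Of these 3 are named, which are not those with the largest differences, and the difference was not tested. R06A10.1, for example, had log2 changes of -3.06 in SX1263 and 2.13 in EG6089. The collagen gene col-60 rose in EG6089 by a log2 change of 3.05, to 360, 484 and 533 CPM in met-2;set-25 against 45.6, 72.9 and 47.6 CPM in wild type, while in SX1263 it had 64.4, 49.5 and 81.9 CPM in met-2;set-25 and 92.2, 146 and 141 CPM in wild type. Its SX1263 call was lost under 5 of 14 alternative settings: with no low-count filter, or without replicate 1 or 2 of met-2;set-25, or replicate 2 or 3 of wild type (adjusted p up to 0.134). The P granule gene meg-4 had a log2 change of -2.08 in EG6089, with 8.61, 16.5 and 10.7 CPM in met-2;set-25 and 52.1, 39.1 and 59.7 CPM in wild type, against 0.67 in SX1263. The cytochrome P450 gene cyp-33E2 had a log2 change of 1.95 in EG6089, with 31.8, 35.2 and 26.4 CPM in met-2;set-25 and 4.09, 12.19 and 7.93 CPM in wild type, against -1.04 in SX1263, where its call was lost under 3 of 14 alternative settings, without replicate 1 or 2 of met-2;set-25 or replicate 1 of wild type (adjusted p up to 0.0671).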

How the results depend on the processing

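No gene called in met-2;set-25 against wild type was called the opposite way under any alternative run, and 174 of the 225 named genes that passed the test kept their call under all of them. Without the replicate block the count of lower genes was 1788 (1380 in fed worms), against met-2 799 were higher and 1301 lower, and against set-25 1047 were higher and 1460 lower. With only the groups compared in the fit, the count of lower genes in fed worms was 990, and against met-2 914 were higher and 1044 lower. Leaving out each library in turn gave 1561 to 2277 higher and 2383 to 2815 lower at P0, 951 to 1821 and 1682 to 2550 in fed worms, 1206 to 1462 and 1735 to 2093 against met-2, 1197 to 1577 and 1915 to 2288 against set-25, 3538 to 4400 called at F3 and 3695 to 4025 called in EG6089. The fed counts of 951 and 1682 came without wild-type replicate 1. The log2 change was -2.002 to -1.874 for met-2 and -1.21 to -1.09 for set-25. The number of genes whose effect differed between P0 and F3 was 20 with DESeq2, 2 with RLE scaling, 2 with a stricter filter, 1 with the control libraries only, 0 with only the groups compared, and 1 to 6 with a library left out; it was 1 without replicate 1 or 2 of met-2;set-25 at P0, without replicate 1 or 3 of wild type at P0 or without replicate 2 of wild type at F3, and 2 without replicate 2 of wild type at P0. The estimate for GFP, not called, changed sign, to 0.014 with DESeq2, 0.013 with RLE scaling, 0.011 with the control libraries only, 0.011 with no filter, 0.025 without the replicate block, 0.044 with a stricter filter and it ranged over -0.17 to 0.10 with a library left out, and that of nhr-219, not called, ranged over -2.74 to 0.095, the last without wild-type replicate 2. The cause of these changes was not tested. At F3 and in EG6089 the replicate numbers did not all pair (r of -0.06 to 0.13 and 0.06 to 0.48), and those fits had no block. Depth limits low genes most: 3 counts correspond to 0.0866 CPM over the met-2;set-25 libraries and 0.0831 CPM over the wild-type libraries.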
